A study of Mus musculus with 2 samples.

Results

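Solute carriers of 10 SLC families bring sugars, lactate and related monocarboxylates, and amino acids across the membranes of a cell, and their transcripts were compared between cardiac macrophage populations sorted after ischemia–reperfusion (IR), in which a coronary artery is tied off and then reopened. Members were the genes with a single platform symbol that starts with Slc1a, Slc2a, Slc3a, Slc5a, Slc6a, Slc7a, Slc16a, Slc36a, Slc38a or Slc43a and a number. This gave 99 of 19505 genes, each with 1 probe set. By the substrate its family is known for, 61 were amino acid carriers, 19 hexose and polyol carriers, 15 monocarboxylate carriers and 3 other members of the SLC5 family. The remaining 1, Slc7a6os, matches the letters of the rule but is a neighbour of Slc7a6 and not a transporter.

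Each population was represented by 1 Clariom S array. Both came from 10-week-old male C57BL/6 wild-type mice that had undergone IR, and per the methods cells of several hearts were pooled into each sample. Heart cells inside a CD45+CD11b+ gate were separated into MHCII+ macrophages (MHCII+Mac) and MerTK- macrophages (MerTK-Mac). The study counts the sorted MHCII+ cells among its MerTK+ macrophage clusters. The sources used here do not say whether the MHCII+ gate itself also took MerTK into account. How long after IR the cells were taken for the arrays is not given in them. The Trem2+ and Lyve1+ populations of the same study were not analysed here. A single array per population leaves no replicate spread to estimate, so none of the differences below carries a test.

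Facilitative glucose carriers of the SLC2 family let hexoses flow down their gradient, and macrophages that run glycolysis depend on them. The lactate formed leaves or enters with a proton through the SLC16 carriers called MCTs, which need the glycoproteins basigin or embigin to reach the cell surface. Many amino acid carriers are exchangers built from the CD98 heavy chain, encoded by Slc3a2, and 1 of several SLC7 light chains that set the substrate, whereas SLC38 and SLC36 members move amino acids together with sodium or protons at the cell surface or out of lysosomes, where amino acids are sensed by the kinase complex mTORC1.

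A value is the deposited log2 intensity. A floor was set on each array at the 95th percentile of genes for sensory receptors, which were taken as a background set without a check of their expression. It was 4.23 for MHCII+ and 4.67 for MerTK-, and a gene counted as above the floor if the higher of its values exceeded the floor of the array that gave it. Of the 99 members, 40 were above the floor. The other 59 had values from 1.98 to 4.63 in MHCII+ macrophages and from 1.99 to 4.66 in MerTK- macrophages. Differences are taken as MHCII+ minus MerTK-, and a gene is called apart at 2-fold, the threshold of the study's methods.

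The widest differences toward MHCII+ macrophages were those of members in the amino acid and monocarboxylate classes, and of the glucose carriers above the floor none passed 2-fold in that direction. Among the 40 members above the floor, 11 (27.5%) passed 2-fold toward MHCII+ macrophages, beside 13.4% of the 10521 genes above the floor. A further 5 (12.5%) passed it toward MerTK- macrophages, beside 6.89% of all genes above the floor. The same 11 and 5 were counted when a lower value under the floor was set to it, where the shares of all genes were 11.8% and 6.00%. The median difference was 0.51 over the 40 members and 0.15 over all genes above the floor.

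**Figure D1:**
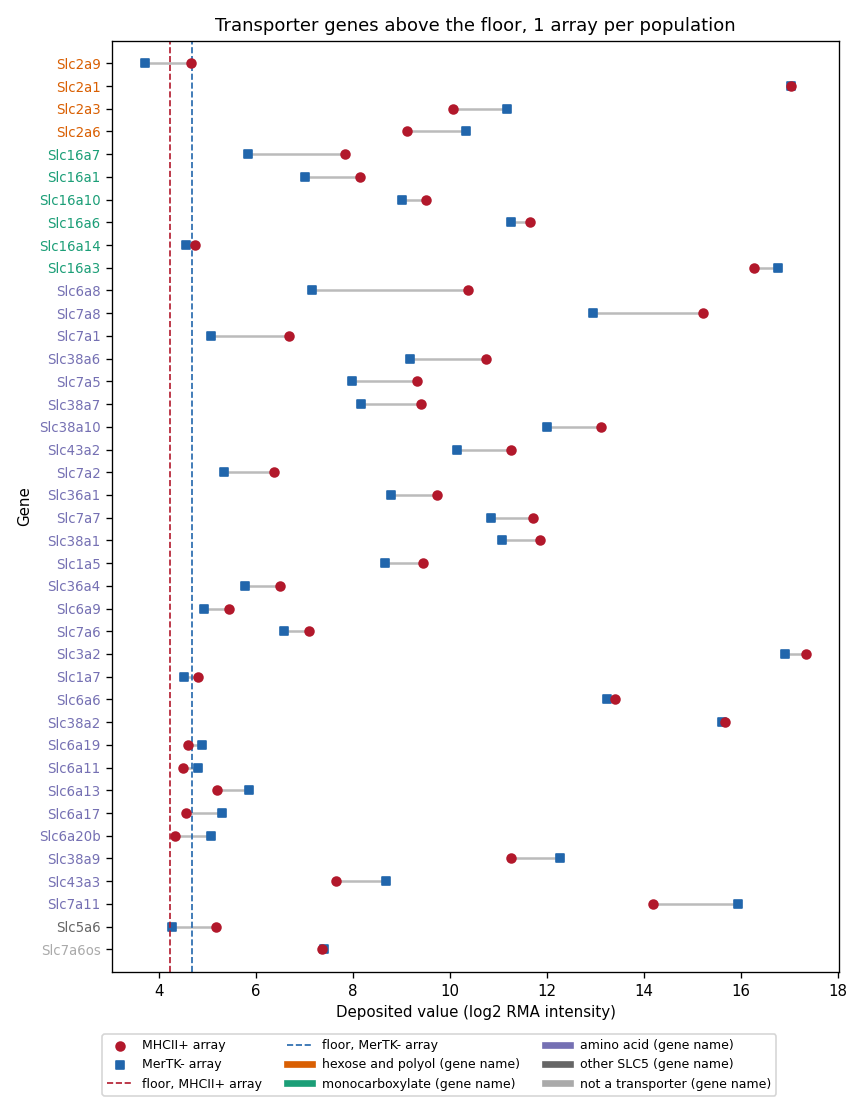
Deposited log2 intensity (x axis) of each of the 40 members above the floor (y axis) on the MHCII+ array (circles) and on that of MerTK- macrophages (squares), with the floor of each array as a dashed line and gene names coloured by class. Slc6a8 shows the widest gap toward MHCII+ (10.4 against 7.16) and Slc7a11 the widest toward MerTK- (15.9 against 14.2); positions of different genes are not comparable, since each has its own probes.

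Among the hexose and polyol carriers, 4 of 19 were above the floor, and 0 passed 2-fold toward MHCII+ macrophages and 2 toward MerTK- macrophages. Slc2a1, which encodes the basal glucose carrier GLUT1, read 17.0 on both arrays with a difference of -0.0036. Slc2a3, which encodes the high-affinity carrier GLUT3, read 10.1 in MHCII+ and 11.2 in MerTK- macrophages, 2.18-fold higher in MerTK-. Slc2a6, which encodes GLUT6 of the lysosomal membrane, was 2.34-fold higher in MerTK- macrophages, with 9.11 in MHCII+ and 10.3 in MerTK-.

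The fourth hexose family gene above the floor was the urate carrier gene Slc2a9, at 4.67 above the floor of the MHCII+ array and at 3.72 under that of the MerTK- array, whose floor was as high as the MHCII+ value, so that no fold is given. The insulin-regulated carrier gene of heart muscle and fat, Slc2a4, read 3.42 and 3.97 and was under the floor on both arrays. The fructose carrier gene Slc2a5 and all 6 sodium-coupled hexose carriers did not count as above it, and neither did the myo-inositol carrier genes Slc5a11 and Slc2a13, the latter only just, at 4.63 and 4.66. With Slc2a1 level and Slc2a3 and Slc2a6 lower in MHCII+ macrophages, the median over the 4 genes was -0.56. It was -1.12 over the 3 genes above the negative-control floor, -0.00495 over 5 genes after quantile normalization, -0.03 over all 19 with no floor and 0.37 when differences were centred on the hybridization controls.

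Of the 15 monocarboxylate carriers, 6 were above the floor, of which 2 passed 2-fold toward MHCII+ macrophages and 0 toward MerTK- macrophages. The proton-coupled lactate carriers did not move as a block. Slc16a1, which encodes MCT1, a carrier of lactate and pyruvate in either direction, read 8.15 in MHCII+ and 7.02 in MerTK- macrophages, 2.19-fold higher in MHCII+. Slc16a7, which encodes the related high-affinity carrier MCT2, read 7.84 and 5.84, 4.0-fold higher in MHCII+. Both lay under the 95th percentile of the negative-control probe sets, 9.03 and 9.66, on both arrays.

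Slc16a3, which encodes MCT4, the lactate exporter of glycolytic cells, leaned the other way, with 16.3 in MHCII+ and 16.8 in MerTK- macrophages, 1.42-fold and short of the threshold. Slc16a10, a carrier of aromatic amino acids placed in this family, read 9.51 and 9.01. Slc16a6, which encodes MCT7, read 11.7 and 11.3, and Slc16a14 lay near the floor at 4.74 and 4.56. Slc16a9, at 3.60 and 4.64, was 2.05-fold higher in MerTK- macrophages as deposited. It was not counted, since 4.64 fell just short of the MerTK- floor of 4.67, the higher of the 2 floors. The sodium-coupled lactate carriers Slc5a8 and Slc5a12 were under the floor, as was Slc16a8, the lactate carrier of the retinal pigment epithelium. The median over the 6 genes was 0.45, which fell to -0.023 when differences were centred on housekeeping genes.

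Amino acid carriers gave most of the members above the floor, 28 of 61, of which 9 passed 2-fold toward MHCII+ and 3 toward MerTK- macrophages. A total of 20 had the higher value in MHCII+ macrophages, and the median difference was 0.62. With no floor the median over all 61 was -0.00879, so the lean toward MHCII+ macrophages was that of the members above the floor. A list of 22 housekeeping genes leaned the same way, with a median of 0.47 and 8 of them past 2-fold toward MHCII+ macrophages, so that relative to that list the amino acid median was 0.15.

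The heavy chain of the CD98 complex was short of 2-fold while 3 of its 5 light chains above the floor passed it. Slc3a2, the heavy chain, read 17.3 in MHCII+ and 16.9 in MerTK- macrophages, 1.34-fold. Slc7a8, the light chain of the neutral amino acid exchanger LAT2, read 15.2 and 12.9, 4.86-fold higher in MHCII+ macrophages. Slc7a5, the light chain of LAT1, which exchanges glutamine for leucine and other large neutral amino acids, read 9.33 and 7.97, 2.56-fold higher in MHCII+.

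Slc7a11 went in the opposite direction from the other light chains. It encodes xCT, which imports cystine in exchange for glutamate and so supplies cysteine for glutathione. Its values were 14.2 in MHCII+ and 15.9 in MerTK- macrophages, 3.39-fold higher in MerTK-, the 117th largest difference in that direction of 10521 genes. The remaining light chains, which exchange cationic for neutral amino acids, were short of 2-fold: Slc7a7 read 11.7 and 10.8, and Slc7a6 read 7.09 and 6.57. The heavy chain rBAT of the kidney cystine carrier, Slc3a1, and its partner Slc7a9 were both under the floor.

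Arginine and lysine also enter through the cationic carriers of the SLC7 family, which need no heavy chain. Slc7a1, which encodes the widely used carrier CAT1, read 6.68 in MHCII+ and 5.07 in MerTK- macrophages, 3.04-fold higher in MHCII+. Slc7a2, which encodes CAT2, known for arginine supply to activated macrophages, read 6.37 and 5.34, 2.05-fold higher in MHCII+. Slc7a3, Slc7a4 and Slc7a14 were under the floor.

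The widest difference of all members was that of Slc6a8, the creatine carrier of muscle, brain and other cells, which is counted with the amino acid carriers by its family. It read 10.4 in MHCII+ and 7.16 in MerTK- macrophages, 9.21-fold higher in MHCII+, and ranked 34th of 10521 genes in that direction. No other SLC6 member above the floor reached 2-fold. The taurine carrier gene Slc6a6 read 13.4 and 13.2, a difference of 0.16. The glycine carrier gene Slc6a9 read 5.45 and 4.92, and the 5 others above the floor (Slc6a11, Slc6a13, Slc6a17, Slc6a19 and Slc6a20b) had differences from -0.75 to -0.29, with values no higher than 5.86. The carriers of noradrenaline, dopamine and serotonin were under the floor.

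**Figure D2:**
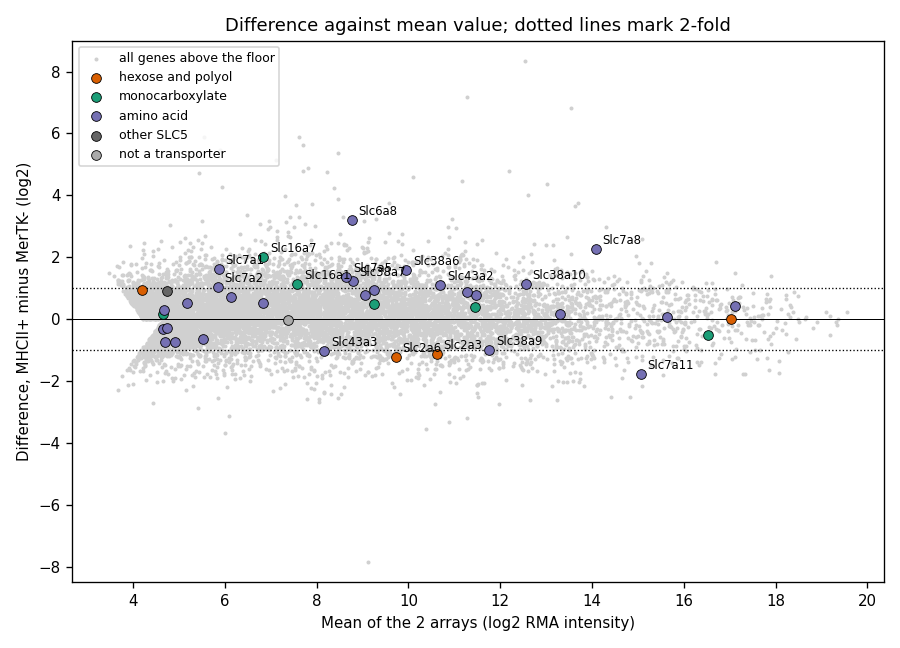
Difference in log2 intensity, MHCII+ minus MerTK- (y axis), against the mean of the 2 arrays (x axis) for all 10521 genes above the floor (grey) and the 40 members (coloured by class), with dotted lines at 2-fold. Slc6a8 at 3.20 and Slc7a8 at 2.28 lie highest among the members, and Slc7a11 at -1.76 lowest.

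Within the SLC38 family all 4 members outside the classical systems A and N that were above the floor were at least 2-fold apart, though not in 1 direction. Slc38a6 read 10.7 in MHCII+ and 9.17 in MerTK- macrophages, 2.99-fold higher in MHCII+. Slc38a7, which encodes a glutamine exporter of the lysosome, read 9.40 and 8.17, 2.34-fold higher in MHCII+. Slc38a10 read 13.1 and 12.0, 2.18-fold higher in MHCII+.

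The exception was Slc38a9, which encodes the lysosomal arginine sensor that acts on mTORC1. It read 11.3 in MHCII+ and 12.3 in MerTK- macrophages, 2.01-fold higher in MerTK- and so only just past the threshold. The system A carriers of glutamine and small neutral amino acids, whose genes lie next to each other in the RefSeq gene order, were short of it: Slc38a1 read 11.9 and 11.1, and Slc38a2, which is induced by amino acid shortage in cultured cells, read 15.7 and 15.6. Slc38a3 and Slc38a5 of system N were under the floor.

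The SLC43 family was split. Slc43a2, which encodes LAT4, a carrier of branched-chain amino acids and phenylalanine, read 11.2 in MHCII+ and 10.1 in MerTK- macrophages, 2.16-fold higher in MHCII+. Slc43a3, whose product carries purine nucleobases rather than amino acids and is counted with its family here, read 7.66 and 8.68, 2.04-fold higher in MerTK-. Slc43a1, which encodes LAT3, was under the floor.

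The remaining amino acid carriers above the floor were short of 2-fold. The proton-coupled carrier genes Slc36a1, found on lysosomes, and Slc36a4 read 9.72 and 8.79, and 6.49 and 5.78, both higher in MHCII+ macrophages. Slc1a5, which encodes the glutamine carrier ASCT2, read 9.43 in MHCII+ and 8.67 in MerTK- macrophages, 1.70-fold higher in MHCII+. Glutamate carriers of the SLC1 family, which take up the transmitter in brain, were under the floor except for Slc1a7, near it at 4.81 and 4.53.

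Outside the 3 classes, the biotin and pantothenate carrier gene Slc5a6 read 5.19 in MHCII+ macrophages and 4.28, under the floor, in MerTK- macrophages, which gives at least 1.43-fold. The non-transporter gene Slc7a6os read 7.37 and 7.40, while the gene next to it, Slc7a6, differed by 0.52. On the deposited values, Slc38a9 at 2.01-fold, Slc43a3 at 2.04-fold and Slc7a2 at 2.05-fold lay just inside the threshold, and Slc36a1 at 1.91-fold and Slc7a7 at 1.82-fold were the nearest outside it among members with both values above the floor.

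Promoter sequences were read from the RefSeq table of build GRCm38.p6, which held 43 promoters of 30 of the 40 members above the floor and of 10 of the 16 members that were 2-fold apart. Letters of known response elements were searched on both strands in the 250 bases before and 50 after each start site. The core TGATGCAA, bound by the transcription factor ATF4 with its partners, which was added to the search after the Slc7a11 promoter had been seen, was in 3 of the 43 member promoters, of Slc7a11 and Slc7a7, beside 0.895% of all 32851 promoters. The longer TGATGCAAT, which contains that core, was in 0 of the 43 and in 0.192% of all promoters. The AP-1 letters TGACTCA were in 3, of Slc2a9, Slc6a17 and Slc7a1 (5.20% of all), the CRE letters TGACGTCA in 1, of Slc38a6 (1.79% of all), and the short hypoxia core ACGTG in 13 (30.2%, beside 19.6% of all). A match is a string of letters and not a measured site.

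The 250 bases before the start site are shown for Slc7a11, the member most shifted toward MerTK- macrophages, and for 3 of the 5 carrier genes past 2-fold toward MHCII+ macrophages that held a searched element: Slc38a6 and Slc7a1, which held the CRE and the AP-1 letters, and Slc16a1, as the lactate carrier among the 3 with the hypoxia core. Slc38a7 and Slc38a10 also held that core and are not shown. Capitals mark the matches. All are written 5′ to 3′ on the strand of the gene, and positions count back from the start site, with -1 the base before it. In Slc7a11 (chr3:50443614-50443863, minus strand) the ATF4 core starts at -66 and, reversed, at -47. In Slc38a6 (chr12:73286598-73286847, plus strand) the CRE starts at -121. In Slc7a1 (chr5:148399905-148400154, minus strand, 1 of its 2 promoters in the table) the AP-1 letters start at -123. In Slc16a1 (chr3:104638414-104638663, plus strand) the palindrome CACGTG starts at -200 and holds ACGTG on both strands. A further ACGTG starts at position 21, past the start site and so outside the bases shown.
Slc7a11: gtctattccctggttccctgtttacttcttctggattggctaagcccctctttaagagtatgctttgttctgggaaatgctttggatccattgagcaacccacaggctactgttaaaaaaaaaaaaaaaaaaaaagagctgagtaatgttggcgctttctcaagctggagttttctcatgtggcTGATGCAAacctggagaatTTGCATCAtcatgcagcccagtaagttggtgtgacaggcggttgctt
Slc38a6: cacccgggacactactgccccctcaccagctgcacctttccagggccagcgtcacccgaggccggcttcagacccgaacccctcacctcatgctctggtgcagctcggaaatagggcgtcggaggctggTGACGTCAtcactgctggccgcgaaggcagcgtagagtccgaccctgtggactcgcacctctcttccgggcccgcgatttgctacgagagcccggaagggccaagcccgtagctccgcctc
Slc7a1: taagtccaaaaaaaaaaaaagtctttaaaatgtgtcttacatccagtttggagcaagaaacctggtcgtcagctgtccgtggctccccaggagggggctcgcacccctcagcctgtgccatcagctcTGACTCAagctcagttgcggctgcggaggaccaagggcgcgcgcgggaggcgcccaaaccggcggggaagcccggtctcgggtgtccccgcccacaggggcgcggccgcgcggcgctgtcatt
Slc16a1: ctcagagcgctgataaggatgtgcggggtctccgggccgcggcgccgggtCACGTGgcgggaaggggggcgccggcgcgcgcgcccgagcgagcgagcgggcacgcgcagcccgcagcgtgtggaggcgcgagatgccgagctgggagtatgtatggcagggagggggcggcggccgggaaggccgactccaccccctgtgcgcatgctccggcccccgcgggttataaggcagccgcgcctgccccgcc

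Genes that work with these carriers were read from 5 lists. Of all genes above the floor, 13.4% passed 2-fold toward MHCII+ and 6.89% toward MerTK- macrophages. Of the chaperones and regulators of uptake, all 10 were above the floor and 0 were 2-fold apart in either direction, with a median of -0.0062. Basigin (Bsg), the partner of MCT1 and MCT4, read 15.6 in MHCII+ and 14.8 in MerTK- macrophages, and embigin (Emb), a partner of MCT2, read 13.9 and 14.6. Txnip, whose product restrains glucose uptake, read 16.7 and 17.4.

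Genes of hexose phosphorylation and lactate formation were close to level as well, with 0 of 8 past 2-fold toward MHCII+ macrophages, 1 toward MerTK- macrophages and a median of 0.26. The 1 was Epas1, which encodes the hypoxia factor HIF-2α and is strong in endothelium, at 5.41 and 6.78. Ldha, which encodes the lactate dehydrogenase subunit that favours lactate formation, read 16.4 and 15.7. In the list of glutamine, cysteine and branched-chain use, 6 of 7 measured genes were above the floor, with a median of 0.07. Gclm, a subunit of the enzyme that starts glutathione synthesis from the cysteine xCT supplies, read 11.2 and 12.8, 2.97-fold higher in MerTK- macrophages, on the same side as Slc7a11. Gclc, the other subunit, was higher in MHCII+ macrophages, at 10.2 and 9.84. Gss of the same list read 5.34 and 5.54, and both were short of 2-fold. Bcat2, which starts the breakdown of branched-chain amino acids, was 2.39-fold higher in MHCII+ macrophages, at 7.51 and 6.25.

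ATF4 raises many amino acid carriers when amino acids run short, Slc7a5 and Slc7a11 among them. The list read for this response also held Atf4 itself and the upstream kinase genes Eif2ak3 and Eif2ak4. Of its 16 genes above the floor, 3 (18.75%, all genes 13.4%) passed 2-fold toward MHCII+ macrophages. Toward MerTK- macrophages 1 did (6.25%, all genes 6.89%), and the median was -0.26. The 3 were Psat1 (5.73-fold) and Shmt2 (3.26-fold), enzymes of serine and glycine synthesis, and the uncharged tRNA sensor kinase gene Eif2ak4 (2.23-fold). The 1 was Cebpb (2.72-fold), which encodes a transcription factor of myeloid cells. Atf4 itself read 14.7 in MHCII+ and 15.3 in MerTK- macrophages, and Asns, its target for asparagine synthesis, read 7.31 and 7.66.

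Among the genes of lysosomal amino acid sensing by mTORC1, 20 of 22 were above the floor, with a median difference of 0.32. On the deposited values 4 (20%) passed 2-fold toward MHCII+ macrophages, beside 13.4% of all genes above the floor. Toward MerTK- macrophages 0 did. With the floor the MHCII+ count was 3, beside 11.8% of all genes. Of the 22 housekeeping genes, 8 passed 2-fold toward MHCII+ macrophages, with a median of 0.47. Sesn1, whose product is a leucine sensor family member, was 3.29-fold higher and Depdc5, a subunit of the complex that holds mTORC1 in check, 2.12-fold higher. Rptor, the mTORC1 subunit that binds its substrates, was at least 2.28-fold higher, and the arginine sensor family gene Castor2 at least 1.62-fold higher once its value under the floor on the MerTK- array was set to it.

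**Figure D3:**
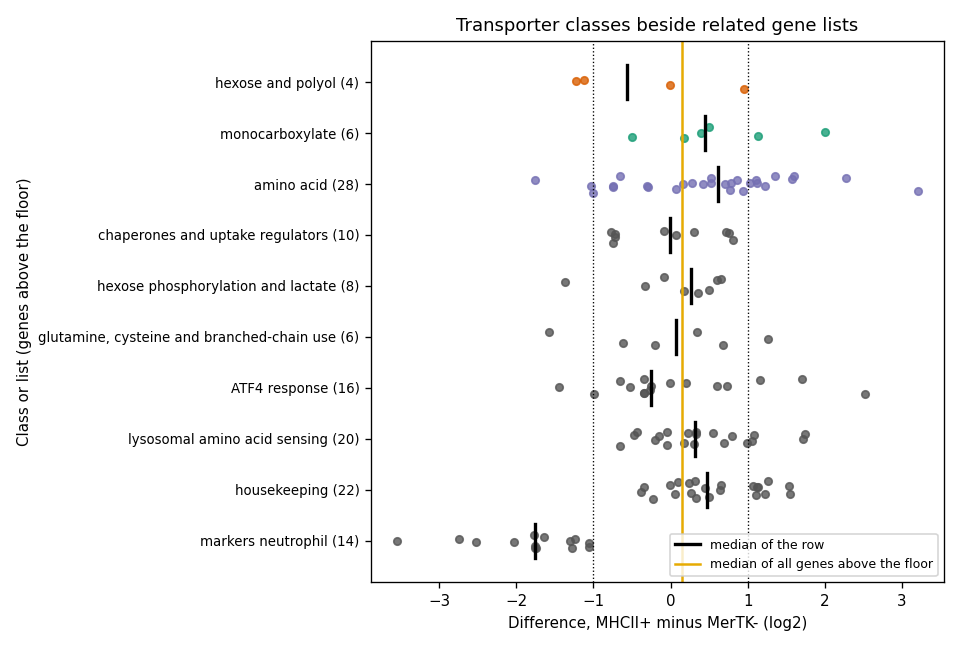
Difference in log2 intensity, MHCII+ minus MerTK- (x axis), of every gene above the floor in each transporter class and in related gene lists (y axis, with the number of genes), where black bars are row medians, the yellow line is the median of all genes above the floor (0.15) and dotted lines mark 2-fold. The hexose row centres at -0.56, the monocarboxylate row at 0.45, the amino acid row at 0.62, the housekeeping row at 0.47 and the neutrophil marker row at -1.75.

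The sorted populations carried their labels in part. The MHC class II gene H2-Aa read 16.7 in MHCII+ and 8.39 in MerTK- macrophages, H2-Ab1 read 17.0 and 10.1, and H2-Eb1 read 14.9 and 7.69. Mertk was 6.99-fold higher in MHCII+ macrophages, at 8.77 and 5.97, both under the negative-control percentiles of 9.03 and 9.66. Neutrophil markers moved with the populations too, and 14 of 16 were above the floor. All 14 passed 2-fold toward MerTK- macrophages on the deposited values, and 12 with a lower value under the floor set to it. The median was -1.75, and the summed linear intensity was 725509 in MHCII+ and 2232850 in MerTK- macrophages. On each array this sum exceeded that of the macrophage markers, 506740 and 261917, and S100a8 read 17.2 and 19.0. Neutrophil transcripts were thus bright in both populations, which are called macrophages here by their labels. Sums over different probe sets do not give shares of cells. Camp and Mpo were under the floor on both arrays. Toward MerTK- macrophages too, 2-fold was passed by 7 of 8 NK cell markers above the floor, 6 of 10 cardiomyocyte markers, 4 of 10 endothelial markers and 3 of 5 fibroblast markers. With the floor the NK cell count was 6 and the others were unchanged. The NK cell marker Klrd1 went the other way, at least 4.71-fold higher in MHCII+ macrophages.

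Other markers moved toward MHCII+ macrophages, on the same side as most of the carriers that passed 2-fold. Of 10 macrophage markers, 5 passed 2-fold in that direction, among them C1qa at 27.9-fold, and the summed linear intensity was 506740 in MHCII+ and 261917 in MerTK- macrophages. Of 6 dendritic cell markers above the floor, 3 did, Ccl17 at 27.3-fold, Cd209a at least 15.4-fold and Ccl22 at least 14-fold. The other way, 1 passed it on the deposited values and 0 with the floor. Clec9a, Flt3, Xcr1 and Zbtb46 were under the floor on both arrays. Of 4 B cell markers above the floor, 2 passed 2-fold toward MHCII+ on the deposited values and 0 with the floor, and of 2 T cell and 2 erythroid markers 0 did. The part of any of these cells in the transporter differences was not tested, and in sorted bulk RNA fewer cells of a type and less RNA per cell cannot be told apart.

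The direction of the counts depended on what the arrays were centred on. As deposited, 68.8% of the 16 members that were 2-fold apart were higher in MHCII+ macrophages, beside 66.0% of all such genes. Centred on the median of all genes above the floor, 7 members were higher in MHCII+ and 5 in MerTK- macrophages (58.3%, all genes 51.0%). Centred on the 22 housekeeping genes, 5 and 8 were (38.5%, all genes 21.3%), and centred on the 4 hybridization controls, which differed by -0.93, 27 and 0 were (100%, all genes 98.8%).

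Of the 16 members 2-fold apart, 5 were so under each of these scalings and under quantile normalization: Slc6a8, Slc7a8, Slc16a7, Slc7a1 and Slc38a6. The lowest differences of these genes, centred on housekeeping genes, were 2.73 for Slc6a8, 1.81 for Slc7a8, 1.53 for Slc16a7, 1.13 for Slc7a1 and 1.11 for Slc38a6. Of these, Slc16a7 and Slc7a1 lay under the negative-control percentiles on both arrays and are lost where those are the floor. Slc6a8 and Slc38a6 passed that floor by their MHCII+ values only. Their MerTK- values of 7.16 and 9.17 lay under its 9.66, and their folds were not bounded by it. The other 11 fell short of 2-fold under at least 1 scaling, and no member of the 16 changed sign under any. Slc7a11 ran from -2.23 centred on housekeeping genes to -0.83 centred on hybridization controls, and all 5 members higher in MerTK- macrophages were short of 2-fold under the latter.

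**Figure D4:**
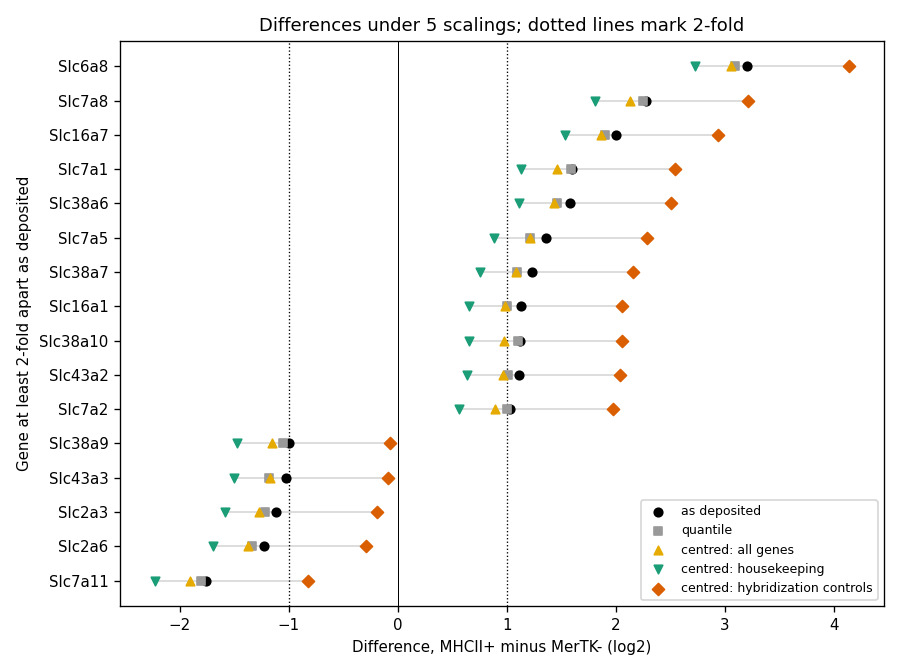
Difference in log2 intensity, MHCII+ minus MerTK- (x axis), of the 16 members at least 2-fold apart (y axis) as deposited (circles), after quantile normalization (squares), and centred on all genes above the floor (upward triangles), housekeeping genes (downward triangles) or hybridization controls (diamonds), with dotted lines at 2-fold. Slc6a8 stays at or above 2.73, while Slc38a9 lies between -1.48 and -0.07.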

How the data were processed

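Expression was measured on 2 mouse Clariom S arrays, 1 per population. An older array is named in the series description, whereas the methods and probe set names are those of Clariom S. Per the methods the authors normalized scanner data by RMA with global scaling, and Affymetrix Expression Console (version not given in the sources used here) appears in the submitters' processing notes. The deposited values are log2 intensities. Array medians were 4.61 (MHCII+) and 4.71 (MerTK-), and 337 and 331 probe sets passed 16, the log2 limit of a 16-bit scanner, so values were moved after the scan; scaling, which keeps folds, and a stretch of the scale, which enlarges them, were not told apart, and folds are on the deposited scale. No SD or p-value is possible with 1 array per population, which also limits precision.

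Of 28846 probe sets, 22206 stand for transcripts, of which 19572 have 1 gene symbol, 0 several and 2634 none here. For 55 genes with several probe sets, none of them a member, the one with the highest mean was taken. Floors came from 1452 olfactory, vomeronasal and taste receptor probe sets. The 5222 negative-control probe sets had 95th percentiles of 9.03 and 9.66, so a value above the floor does not prove expression. A lower value under its floor was set to it and the fold given as "at least".

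Named genes were all members 2-fold apart, the 3 members of each class with the highest means, the CD98 chains, every gene of the context lists that was 2-fold apart, and label markers. Other named members were added after their values were seen. Members, lists and settings were chosen with earlier results of these data known. Alternatives were other floors, centrings, quantile normalization, the mean over probe sets and other fold thresholds. Calculations used Python 3.11.15 with pandas 2.3.3 and numpy 2.4.6, and were tested on simulated data.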

Additional observations from a re-analysis of the deposited data

How the results depend on the processing

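No paired analysis was possible because each population had 1 array. With the negative-control floor, 22 members remained above it and 7 passed 2-fold toward MHCII+ and 4 toward MerTK- macrophages, and the hexose, monocarboxylate and amino acid medians were -1.12, 0.40 and 0.90. Lower values were not set to that floor in these counts. Slc6a8, Slc38a6, Slc38a7 and Slc7a5 counted toward MHCII+ macrophages with MerTK- values under it. Fewer genes passed that floor by construction. With no floor the medians were -0.03, 0.33 and -0.00879. Setting values under the floor to it gave a hexose median of -0.565. Centred on the median of genes above the floor, the MHCII+ count was 7 and the medians were -0.71, 0.30 and 0.47. Centred on housekeeping genes, the counts were 5 and 8 and the medians -1.04, -0.023 and 0.145. Centred on hybridization controls, the counts were 27 and 0 and the medians 0.372, 1.38 and 1.55. Quantile normalization gave -0.00495 for the 5 hexose genes then above the floor, 0.34 and 0.59. A 1.5-fold threshold gave 18 and 8 members, and a 3-fold threshold 4 and 1. The mean over probe sets changed no value, since each member has 1 probe set. The cause was not tested where construction does not give it. Signal over background limits members near the floor, which have no reliable order.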
